A study of Mus musculus with 12 samples.

Results

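The cytosolic ribosomal protein genes encode the protein components of the ribosome that translates mRNAs in the cytoplasm. They were taken as the probes of the bead array whose annotated symbol is Rpl or Rps, with or without a further p, then a number and at most a closing a or l. This form leaves out the Rps6 kinases and the mitochondrial ribosomal proteins. The array carried 74 such probes for 58 genes. Of these, 60 probes for 51 genes had a detection p-value under 0.05 on at least 4 of the 12 arrays, among 13497 probes for 9509 genes that met the same condition. The 51 genes were 20 of the small subunit, 29 of the large subunit, and Rplp0 and Rplp1 of the P-stalk. The probe with the highest mean signal stands for a gene with several probes.

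The RNA came from normal colon of ApcMin mice. All animals of both diets carried this truncating mutation of the tumour suppressor Apc, so no sample is from a wild-type mouse. The 8 deficient arrays are of 4 labelled animals (1 to 4) fed for 11 weeks on a diet deficient in methyl donors, and the 4 sufficient arrays are of 2 labelled animals (1 and 3) fed for the same time on a diet sufficient in them, with sample 1 and sample 2 from each animal. The age and the sex of the animals are not in the sample labels. The comparison of the diets asks what depletion of methyl donors does to gene expression in this tissue. Colon samples hold several cell types, so in every result below fewer cells of a type and less RNA per cell cannot be told apart.

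Ribosomal proteins assemble with rRNA in the nucleolus in nearly fixed proportions, and those left unassembled are mostly degraded. Their mRNAs are among the most abundant of growing cells and start with a terminal oligopyrimidine tract (TOP), a cytosine followed by a run of C and U, through which the mTOR pathway adjusts their translation. In the intestine, the fast renewal of crypt cells places a high demand on ribosome production, and Myc, a target of the Wnt pathway that Apc restrains, promotes transcription of these genes. In mice, mutation of some ribosomal protein genes activates p53.

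The windows below show where the C and T runs lie at the starts of Rps15, Rpl19 and Rpl34, which are those of the 4 genes that rose with a window in the promoter table (Rpl23a was not matched there), of Rps6, Rpl28 and Rpl35, with long runs at the start, and of Rpl5 and Rps2, whose differences were below 0. Each runs on the transcribed strand from 60 bases before to 25 bases after the annotated start and is taken from RefSeq, GRCm38.p6. Capitals mark a C followed by at least 5 C or T within 25 bases either side of the start. For Rpl19 and Rpl34, which have several annotated starts, a window of 1 start is shown. Another annotated start of Rpl19, not shown, has no such run, whereas another of Rpl34 has one.
Rps15, chr10:80292371-80292455, plus strand: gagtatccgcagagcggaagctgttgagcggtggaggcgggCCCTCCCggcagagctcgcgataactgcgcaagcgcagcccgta
Rpl19, chr11:98026864-98026948, plus strand: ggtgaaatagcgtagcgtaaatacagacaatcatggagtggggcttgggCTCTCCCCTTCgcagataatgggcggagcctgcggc
Rpl34, chr3:130730313-130730397, minus strand: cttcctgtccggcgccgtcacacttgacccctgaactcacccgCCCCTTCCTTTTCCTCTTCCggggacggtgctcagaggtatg
Rps6, chr4:86857343-86857427, minus strand: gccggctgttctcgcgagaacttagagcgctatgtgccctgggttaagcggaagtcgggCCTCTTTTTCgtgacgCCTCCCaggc
Rpl28, chr7:4792905-4792989, plus strand: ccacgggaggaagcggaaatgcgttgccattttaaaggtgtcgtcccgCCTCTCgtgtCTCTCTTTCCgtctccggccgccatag
Rpl35, chr2:39005107-39005191, minus strand: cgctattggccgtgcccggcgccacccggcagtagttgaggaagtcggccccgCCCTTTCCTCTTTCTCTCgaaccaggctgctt
Rpl5, chr5:107900468-107900552, plus strand: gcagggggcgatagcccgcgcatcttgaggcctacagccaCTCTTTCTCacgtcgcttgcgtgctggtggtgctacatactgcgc
Rps2, chr17:24720003-24720087, plus strand: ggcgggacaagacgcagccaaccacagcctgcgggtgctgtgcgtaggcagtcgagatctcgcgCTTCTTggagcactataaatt

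Promoter windows were held for 43 of the 51 genes. A run of at least 5 C or T that begins with C exactly at an annotated start stood in 9 of them (20.9%), against 3.01% of the 27025 genes of the promoter table. A C followed by at least 5 C or T, on the transcribed strand within 25 bases either side of a start, stood in 32 (74.4%), against 44% of all genes. This wider form was chosen after the windows were seen. The letters CTCTTTC, searched on the transcribed strand in the same 25 bases, are always part of such a run, so their genes are among the 32. They stood in 6 (14.0%), against 0.810%. CCGGAAG, the core that ETS factors bind, searched on both strands in the whole 300-base window (250 bases before to 50 after the start), stood in 17 (39.5%), against 9.93%. Of these searches, only the run exactly at an annotated start was planned. These matches describe the letters of the windows only.

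The labels of the animals did not follow the sex of the RNA. The Y-linked gene Eif2s3y had log2 signals of 9.39 to 10.22 on 8 arrays and of 4.47 to 4.56 on the other 4, and the samples of 4 labelled animals (deficient 3 and 4, sufficient 1 and 3) were of opposite sex. The deficient arrays were 6 male and 2 female, and the sufficient arrays 2 male and 2 female. Each labelled mean of these 4 joins a male and a female array, so SD and SE over labelled animals do not measure a spread between single animals. Values are therefore also given with sex-matched pairs, in which the arrays of these 4 animals were rejoined by sex within their diet. The consensus correlation over probes was -0.23 between arrays of the same labelled animal and 0.33 between arrays of the same sex-matched pair. Arrays of a labelled animal were thus less alike than arrays of different ones, and p-values with labelled animals are likely too small. A gene said here to rise or fall did so with labelled animals unless another setting is named. Arrays had 12609 to 13241 probes at detection p-values under 0.05, and median signals of 59.4 to 71.5 before normalisation. Sample 1 of sufficient animal 3, a female array, stood apart in the ribosomal protein genes: it gave the lowest signal of all 12 arrays in 32 of the 51 genes (62.7%), against 11.9% over all probes.

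Most ribosomal protein genes had slightly higher signals in deficient than in sufficient colon. The difference, deficient minus sufficient on the log2 scale, was above 0 in 45 of the 51 genes and in 54 of the 60 probes (90.0%), against 51.2% of all kept probes. Its median was 0.18 over the genes and 0.0060 over all kept probes, and it ran from -0.11 for Rps2 to 0.52 for Rps15. Without sample 1 of sufficient animal 3 the median over the genes was 0.067 in the fit of animal means, with 47 probes above 0, and 0.11 with the arrays weighted equally, with 43 genes above 0.

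With labelled animals as replicates, 4 of the 60 probes rose at an adjusted p under 0.05 in limma (6.67%), against 5.3% of all kept probes, and none fell, against 5.51%. An unadjusted p under 0.05 was reached by 22 of the 60 probes, and by 28.7% of all kept probes. The share that rose is near the background in this setting. It was 16.7% with a background offset of 50 and 18.3% with a variance trend, against 5.33% of all kept probes in each. It lay below the background at 1.67% with the authors' log2 table (against 3.99%) and with no normalisation between arrays (against 3.93%). The same held at 3.33% with median scaling (against 4.46%) and 75th percentile scaling (against 4.675%). With no filter on dim probes 18.3% of the same 60 probes rose, against 2.304% of all 25697 probes. The 14 member probes not kept were left out of that share, whereas the background holds undetected probes, so these 2 shares are not comparable. With sex-matched pairs 0 rose (background 0.0815%) and 0 fell (background 0.2%), 13.3% of the member probes had an unadjusted p under 0.05, against 15.0% of all kept probes, and the lowest adjusted p of limma was 0.180. The SE of 59 of the 60 probes was larger with sex-matched pairs, with a median of 0.11, against 0.085 with labelled animals. Without sample 1 of sufficient animal 3, 0 member probes rose with labelled animals, against 2.62% of all kept probes, and 6.67% had an unadjusted p under 0.05, against 22.9%. Leaving out a deficient animal gave 2 (animal 1), 4 (animal 2), 2 (animal 3) and 1 (animal 4), or 3.33%, 6.67%, 3.33% and 1.67%. The shares over all kept probes were 4.13%, 7.19%, 3.57% and 3.85%. Without a sufficient animal the lone one left is assumed to vary like the deficient ones, and with 31 or 29 of all 13497 probes higher there, the count of 0 members says little of these genes.

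The separation of the diets was more frequent than over all probes in the upward direction. In 33 of the 60 probes (55.0%) all 4 deficient labelled animals lay above both sufficient animals, against 21.9% of all kept probes, and in 2 probes (Rpl5 and Rpl13a) all lay below, against 20.7%. With sex-matched pairs the counts were 19 (31.7%) above, against 12.5%, and 0 below, also against 12.5%. All 8 deficient arrays lay above all 4 sufficient arrays for 6 of the 60 probes (of Rpl19, Rpl23a, Rpl21, Rps10, Rps16 and Rpl28), against 3.27% of all kept probes, and below them for 0, against 3.06%. The ribosomal protein probes share arrays and vary together, so these counts are not counts of independent events.

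**Figure D1:**
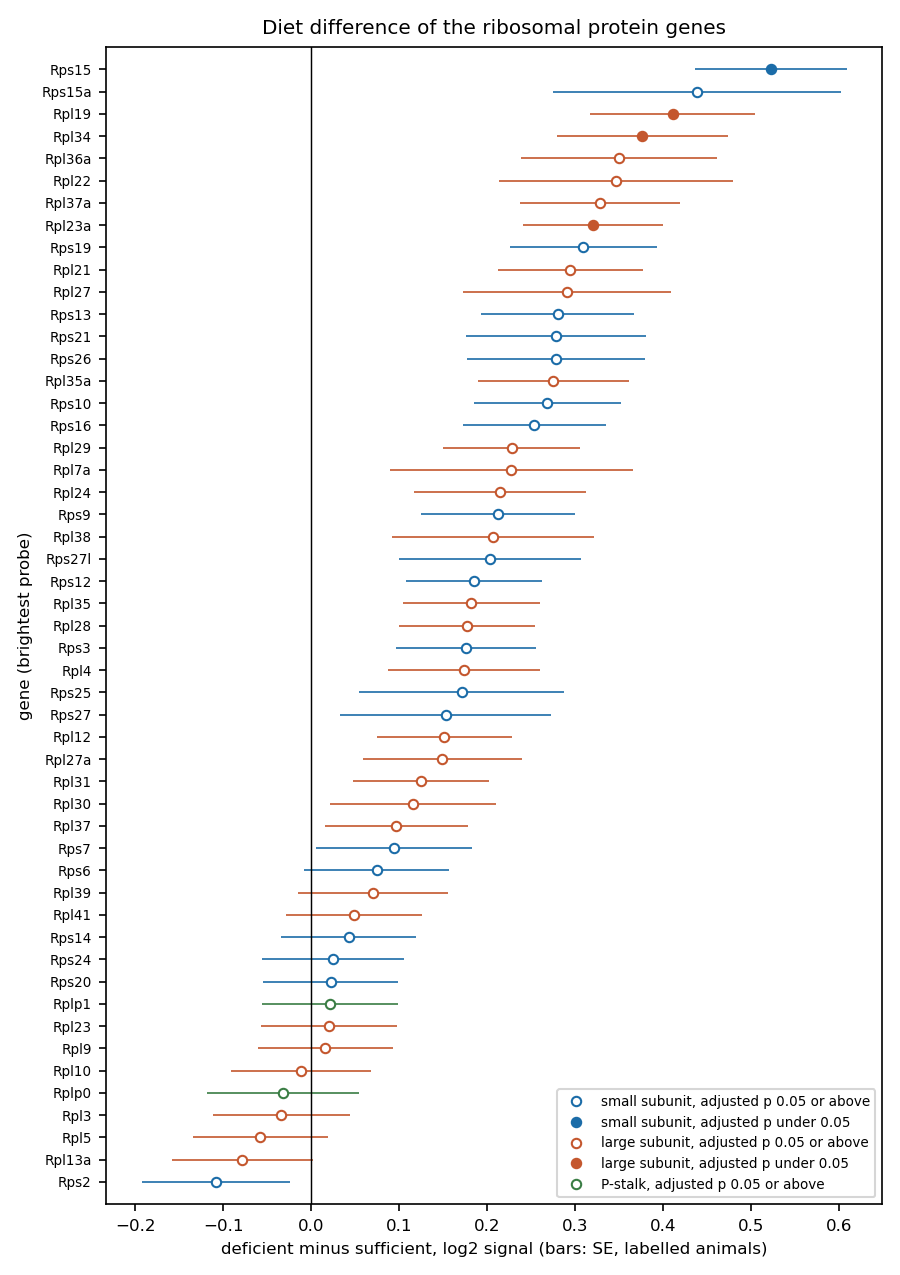
Difference of deficient minus sufficient log2 signal for the 51 genes, from the largest at the top to the smallest, with 1 SE of the labelled-animal fit either side. Filled points (Rps15, Rpl19, Rpl34 and Rpl23a) passed limma at an adjusted p under 0.05, and 45 of the points lie right of 0.

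Of the 20 small-subunit genes, 1 rose and 19 had a difference above 0, with a median of 0.19. Over all kept probes 5.3% rose and 51.2% were above 0, so the 1 that rose is near the background. Rps15 (chr10:80292431-80294114, GRCm38.p6), a protein of the small-subunit head near the decoding site, had normalised log2 signals of 11.94 to 12.79 on the deficient arrays, with a median of 12.25. On the sufficient arrays, in the order animal 1 samples 1 and 2, then animal 3 samples 1 and 2, they were 12.003, 11.63, 11.38 and 12.01. The deficient arrays were higher as a group, but the lowest of them lay under the higher sufficient arrays, which are those of the sufficient male pair. Over labelled animals Rps15 averaged 12.28 ± 0.06 (SD, n = 4) in deficient colon and 11.76 ± 0.09 (SD, n = 2) in sufficient colon. Both sufficient means join a male and a female array, so their SD hides the spread between those arrays. The difference of 0.52 (SE 0.09), or 1.44-fold, had an adjusted p of 0.0106 in limma, and 0.247 (SE 0.17) with sex-matched pairs. It was 0.99 between the female arrays and 0.20 between the male arrays. Without sample 1 of sufficient animal 3 it was 0.37 with an adjusted p of 0.0759.

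Rps15a, whose mutation causes an inherited anaemia in humans, had a difference of 0.44 (SE 0.16) but an adjusted p of 0.124 in limma, and without deficient animal 1 it stood at 0.56 with an adjusted p of 0.0314. Its deficient arrays ran from 6.19 to 7.37, with a median of 7.01, and its sufficient arrays were 6.74, 6.32, 6.31 and 6.64, so the diets overlapped through 1 deficient array. It was the dimmest measured gene, at a mean log2 signal of 6.80. Rps19, the gene most often mutated in that anaemia in humans, had 13.55 to 13.91 on the deficient arrays, with a median of 13.68, and 13.65, 13.22, 13.09 and 13.54 on the sufficient arrays. Its difference of 0.31 (SE 0.08) had an adjusted p of 0.0535 in limma, and 1 sufficient array lay within the deficient range. It was 0.20 (adjusted p = 0.251 in limma) without sample 1 of sufficient animal 3, whereas Rps19 passed in several alternatives, such as the variance trend (adjusted p = 0.0176 in limma).

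The other small-subunit genes named by rule had smaller differences. Rps6, the substrate of the Rps6 kinases downstream of mTOR, had a difference of 0.074 (0.13 without sample 1 of sufficient animal 3), with sufficient arrays of 13.26, 13.06, 13.26 and 13.03 inside the deficient range of 12.99 to 13.54. Rps14, linked to macrocytic anaemia in humans by loss of a copy, stood at 0.042, and Rps24, another gene of inherited anaemia in humans, at 0.025. The difference of Rps2, a protein beside the mRNA entry channel, was -0.11 (SE 0.08, adjusted p = 0.434 in limma), the lowest of the 51 genes. Its deficient arrays ran from 13.51 to 13.97, with a median of 13.71, and spanned the sufficient arrays at 13.76, 13.82, 13.91 and 13.80.

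Of the 29 large-subunit genes, 3 rose and 25 had a difference above 0, against 5.3% and 51.2% of all kept probes, with a median of 0.18. Rpl19 (chr11:98022003-98030493), which bridges to the small subunit, had 11.51 to 12.02 on the deficient arrays, with a median of 11.59, and 11.24, 11.36, 11.11 and 11.43 on the sufficient arrays. All deficient arrays lay above all sufficient arrays. Over labelled animals it averaged 11.70 ± 0.10 (SD, n = 4) in deficient colon and 11.29 ± 0.02 (SD, n = 2) in sufficient colon. Here too each sufficient mean joins a male and a female array. The difference of 0.41 (SE 0.09), or 1.33-fold, had an adjusted p of 0.0317 in limma, and 0.180 with sex-matched pairs, the lowest of all ribosomal protein probes there. It was 0.53 between the female arrays and 0.34 between the male arrays, and 0.33 (adjusted p = 0.113 in limma) without sample 1 of sufficient animal 3.

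Rpl23a (chr11:78180935-78183584) lies at the exit of the nascent chain, where it docks the signal recognition particle. It had 13.28 to 13.46 on the deficient arrays, with a median of 13.30, and 12.99, 13.04, 12.83 and 13.22 on the sufficient arrays, again without overlap. The difference of 0.32 (SE 0.08), or 1.25-fold, had an adjusted p of 0.0416 in limma, and 0.238 with sex-matched pairs. Between the female arrays it was 0.43 and between the male arrays 0.23, and without sample 1 of sufficient animal 3 it was 0.22 (adjusted p = 0.226 in limma).

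Rpl34 (chr3:130726827-130730398), another large-subunit protein, had 12.49 to 12.96 on the deficient arrays, with a median of 12.76, and 12.69, 12.24, 11.87 and 12.56 on the sufficient arrays. Both male sufficient arrays lay within the deficient range and both female sufficient arrays below it. The difference of 0.38 (SE 0.10), or 1.30-fold, had an adjusted p of 0.0464 in limma, and 0.347 with sex-matched pairs. It was 0.76 between the female arrays and 0.058 between the male arrays, and without sample 1 of sufficient animal 3 it was 0.20 (adjusted p = 0.237 in limma).

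Rpl22, which in mice represses expression of its paralog Rpl22l1, had a difference of 0.35 (SE 0.13, adjusted p = 0.132 in limma). Its deficient arrays ran from 10.70 to 11.34, with a median of 11.02, and its sufficient arrays were 10.81, 10.64, 10.56 and 10.74. Rpl22l1 itself had a difference of 0.040 (adjusted p = 0.831 in limma), and its arrays ran from 6.04 to 7.17 in deficient and from 5.997 to 7.45 in sufficient colon. Both genes thus overlapped between the diets.

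Besides Rps2, the differences of Rpl5, Rpl13a, Rpl3, Rpl10 and Rplp0 were below 0, and none of these passed the test. Rpl5, which with Rpl11 and the smallest rRNA binds and inhibits Mdm2, had 13.41 to 13.59 on the deficient arrays, with a median of 13.52, and 13.48, 13.72, 13.57 and 13.53 on the sufficient arrays. The arrays overlapped, and the difference was -0.058 (SE 0.08, adjusted p = 0.661 in limma). The difference of Rpl13a, which silences some mRNAs in interferon-treated human monocytic cells, was -0.078, and that of Rpl3, a protein that reaches towards the peptidyl transferase centre, was -0.034.

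**Figure D2:**
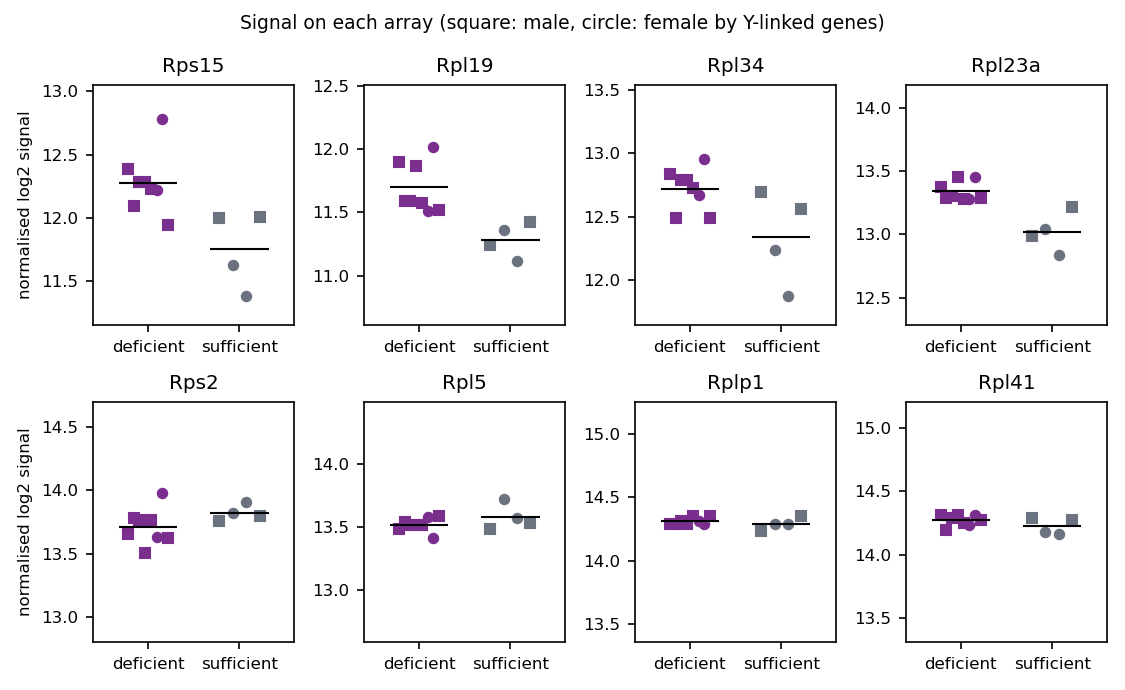
Normalised log2 signal on each array for the 4 genes that rose (top) and for Rps2, Rpl5, Rplp1 and Rpl41 (bottom), deficient left and sufficient right, squares for male and circles for female arrays, lines for the mean of the arrays. Every panel spans the same height in log2 units, and all deficient arrays lie above all sufficient arrays for Rpl19 and Rpl23a only among the 8 genes.

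The P-stalk recruits elongation factors to the ribosome through Rplp0, Rplp1 and Rplp2. Rplp1 had the brightest probe of the measured genes, with 14.29 to 14.36 on the deficient arrays, a median of 14.30, and 14.23, 14.29, 14.29 and 14.36 on the sufficient arrays. The diets overlapped almost wholly, at a difference of 0.021 (SE 0.08). Rplp0, often used to scale measurements between samples, had 8.70 to 9.20 on the deficient arrays, with a median of 8.96, and 8.80, 9.15, 8.93 and 9.07 on the sufficient arrays. Its difference was -0.032 (SE 0.09, adjusted p = 0.842 in limma). The Rplp2 probe was detected on 0 of the 12 arrays.

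Rpl10, Rpl36a and Rpl39 are X-linked, and the diets differ in their share of female arrays. Rpl36a had 12.56 to 12.97 on the deficient arrays, with a median of 12.79, and 12.46, 12.65, 11.88 and 12.63 on the sufficient arrays. Its difference of 0.35 (SE 0.11) had an adjusted p of 0.0841 in limma, and was 0.54 between female and 0.19 between male arrays. Without sample 1 of sufficient animal 3, at 11.88, it was 0.16. Rpl39, which lines the exit tunnel, had a difference of 0.070, and Rpl10, which joins the large subunit late in its maturation, one of -0.011.

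Several members have paralogs with restricted expression. Rps27l, a paralog of Rps27 induced by p53 in humans, had a difference of 0.20 (adjusted p = 0.238 in limma) and Rps27 one of 0.15 (adjusted p = 0.439). Both were smaller without sample 1 of sufficient animal 3, at 0.067 and 0.034. Rpl3l, of heart and skeletal muscle, and Rpl39l, of testis, were detected on 0 of the 12 arrays. The same held for the probes of Rpl6, Rpl14 and Rpl17. The members nearest the detection condition from below were a second probe of Rpl27a, detected on 3 arrays at a mean intensity of 60.2, and Rps23, detected on 2 at 58.6. All 60 kept probes were detected on all 12 arrays, the dimmest gene among them, Rps15a, at a mean intensity of 142. Since every cell uses genes such as Rpl6, the background intensity of their probes says nothing of the level of their mRNAs.

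The mean deviation of the 51 genes from their average over all arrays was taken as a score of each array. It lay between 0.0042 and 0.14 on the 8 deficient arrays, with a median of 0.048. On the sufficient arrays it was -0.069, -0.080, -0.32 and 0.0041. The highest sufficient array, male, lay just under the lowest deficient array, also male, so the diets were separate by a gap smaller than the spread within either. By labelled animal the score was 0.045, 0.066, 0.049 and 0.072 in deficient animals 1 to 4, and -0.074 and -0.16 in sufficient animals 1 and 3.

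The difference was larger between the female than between the male arrays. Its median over the 51 genes was 0.32 between the female arrays (2 deficient and 2 sufficient, 44 genes above 0) and 0.035 between the male arrays (6 deficient and 2 sufficient, 40 above 0), and 41 genes had the larger difference in females. Without sample 1 of sufficient animal 3, a single female sufficient array is left and the female median was 0.16. By sex-matched pair the score was 0.11 in the deficient female pair, 0.014 in the rejoined deficient male pair, -0.20 in the sufficient female pair and -0.032 in the sufficient male pair. The same counts were not taken over all kept probes, so the larger female difference is not shown to be particular to these genes. Whether the diet difference itself differs between the sexes was not tested.

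**Figure D3:**
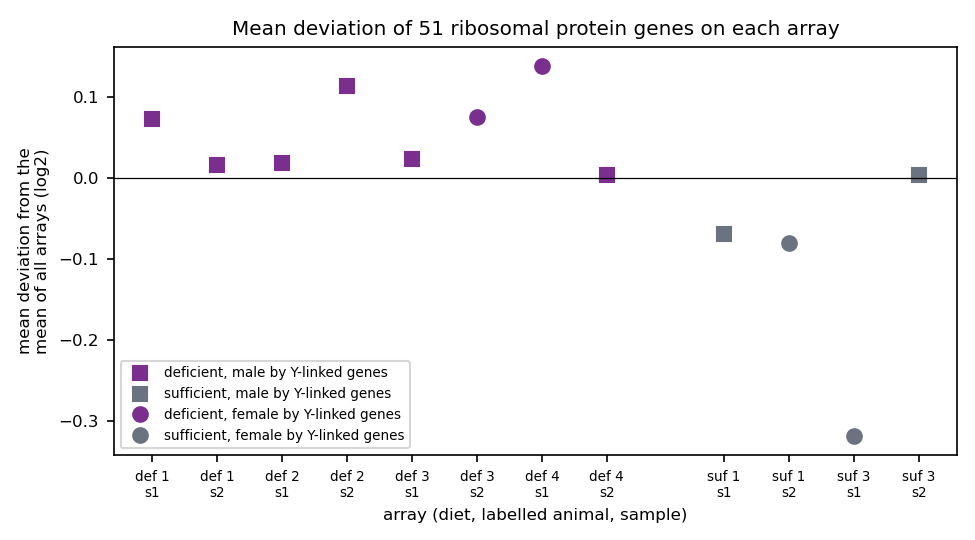
Mean deviation of the 51 ribosomal protein genes from the average of all arrays, in log2 units, for each array, deficient left and sufficient right, squares male and circles female by Y-linked genes. Sample 1 of sufficient animal 3 lies at -0.32, and the other 11 arrays between -0.080 and 0.14.

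The ribosomal protein probes crowded the bright end of the scale. They held 6 of the 20 brightest probes of the array, 15 of the 50 brightest and 29 of the 100 brightest, and the mean log2 signal of the 51 genes ran from 6.80 for Rps15a to 14.31 for Rplp1, with a median of 13.36. The brightest probe of any kind had 19733 to 22964 intensity units on an array, and Rplp1 averaged 20187. The members together gave 4.34% of the summed signal on sample 1 of sufficient animal 3 and 5.13% to 5.72% on the other arrays.

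Differences were smaller among the brightest members. The 32 member probes with a mean log2 signal of at least 13 had a median difference of 0.11 and a median SD over arrays of 0.12, and the 28 dimmer ones a median difference of 0.20 and a median SD of 0.21. At the same brightness, the 106 other probes of at least 13 had a median difference of -0.025, with 38.7% above 0, against 87.5% of the members there. The other 13331 dimmer probes had a median of 0.0055. Rpl41, Rpl9, Rps20 and Rplp1, the brightest genes, lay between 0.016 and 0.049. How far the top of the intensity scale compresses differences of these probes was not tested.

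**Figure D4:**
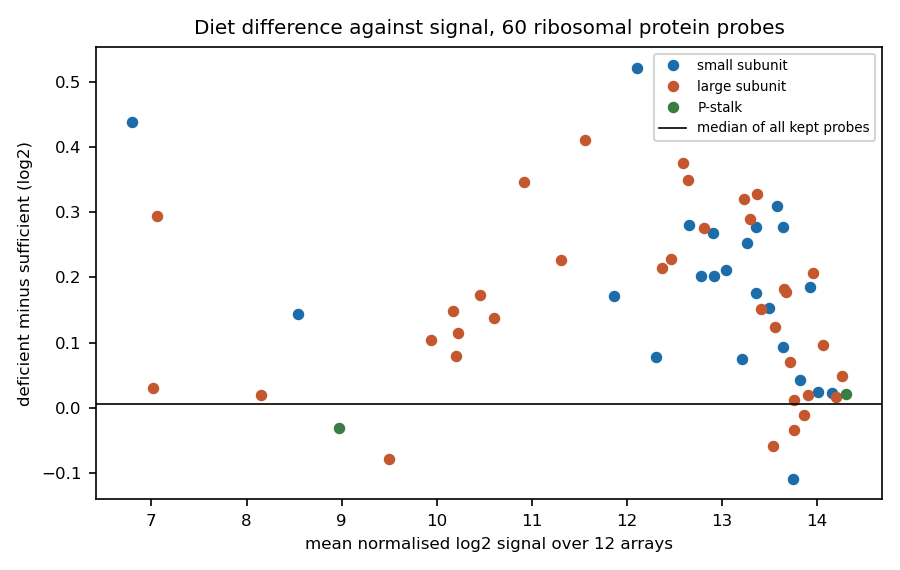
Difference of deficient minus sufficient log2 signal against the mean log2 signal over 12 arrays for the 60 member probes, coloured by subunit, with a line at the median of all kept probes (0.0060). The probes above a signal of 14 reach a difference of 0.096, and the largest differences lie at signals of 6.8 and of 10.9 to 13.4.

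Genes with several kept probes gave differences of the same sign but not of the same size. The probes of Rps9 stood at 0.21 and 0.20, those of Rpl29 at 0.23 and 0.14, and those of Rpl31 at 0.12 and 0.080. The probes of Rpl21 stood at 0.29 and 0.030, although their mean signals were alike at 7.05 and 7.02, and those of Rpl38 at 0.21 and 0.020. RefSeq lists many pseudogenes of these genes, such as 13 for Rpl23a, 12 for Rpl19 and 15 for Rpl21, and whether a probe also binds transcripts of such copies was not tested.

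A further pattern, noticed after the data were seen, ran along the sample number and not the diet. In 7 of the 60 probes (11.7%) sample 2 was above sample 1 in all 6 labelled animals, against 5.98% of all kept probes, and in 0 it was below, against 4.99%. The dimmer probe of Rps3, a small-subunit protein that also acts in DNA repair, gave 12.07 to 12.24 on deficient samples 1, and 12.49 to 12.64 on deficient samples 2. On sufficient samples 1 it gave 11.76 and 12.15, and on sufficient samples 2 it gave 12.55 and 12.57. Sample 2 exceeded sample 1 by 0.47 on average, against a diet difference of this probe of 0.077. The probe is 1 of the 7 picked by their sample difference, so this contrast follows from the choice. Over the 60 member probes the median of sample 2 minus sample 1 was 0.029, and the median diet difference 0.16. In 4 of the 6 labelled animals the 2 samples were of opposite sex, so these are not differences within 1 animal. For Rplp0 the mean excess of sample 2 was 0.31, for Rpl7a 0.34, for Rpl4 0.19 and for Rpl27a 0.18. What distinguishes sample 1 from sample 2 is not in the labels. Each diet holds equally many of both, so the sample number does not differ between the diets.

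**Figure D5:**
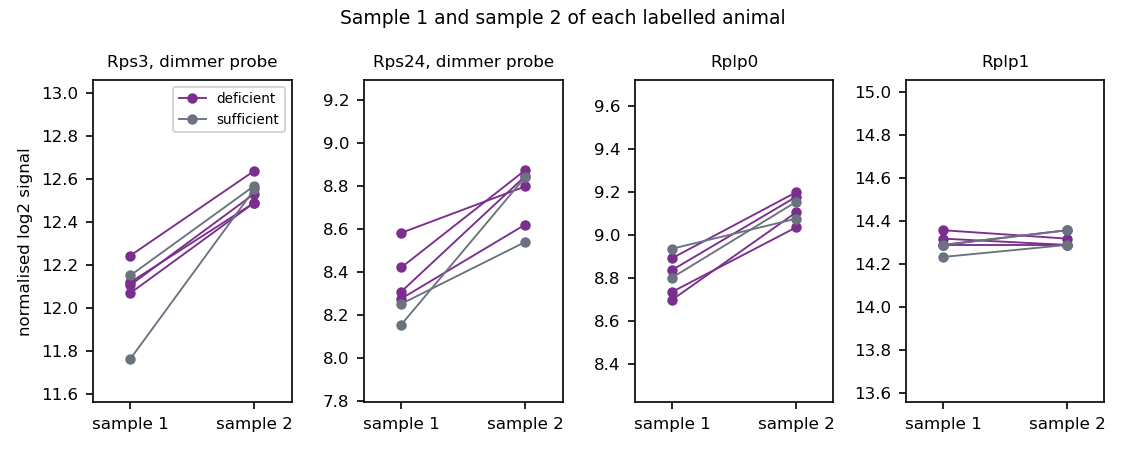
Normalised log2 signal of sample 1 and sample 2 of each labelled animal, joined by a line, deficient and sufficient in separate colours, for the dimmer probes of Rps3 and Rps24, for Rplp0 and for Rplp1. All 6 lines rise for the first 3 probes, by 0.47, 0.42 and 0.31 on average, and those of Rplp1 do not share a direction.

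Among other parts of the translation machinery few genes passed, where 5.3% of all kept probes rose and 5.51% fell with labelled animals. Of 6 measured ribosomal components that the symbol rule leaves out, 0 passed (1 at an unadjusted p under 0.05), with a median difference of 0.075. Fau, the precursor of a small-subunit protein, stood at 0.27 (adjusted p = 0.0852 in limma), Rps4x, X-linked, at 0.11, Rpl36al at 0.14, Rpl7l1 at -0.074 and Rpsa, also a laminin receptor, at -0.054. The Rpsa probe was dim, with a mean log2 signal of 5.48.

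Of 70 measured mitochondrial ribosomal protein genes, 2 rose and 0 fell with labelled animals, against 5.3% and 5.51% of all kept probes. Of these genes 35 were above 0, with a median of 0.0030. Mrpl51 stood at 0.61 (adjusted p = 0.0241 in limma, 0.164 with sex-matched pairs) and Mrpl23 at 0.36 (adjusted p = 0.0442 in limma, 0.358 with sex-matched pairs). Of 23 measured initiation and elongation factors whose mRNAs carry TOP tracts, 1 rose and 0 fell, beside the same background, with a median of -0.037. The 1 that rose was Eif4a2, an RNA helicase of initiation, at 0.42 (adjusted p = 0.0242 in limma, 0.164 with sex-matched pairs). Eef2, which moves the ribosome along the mRNA, stood at -0.27, and Eef1a1, which delivers aminoacyl-tRNA, at 0.29 from a dim probe of mean log2 signal 5.30. Neither passed.

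Of 36 measured ribosome biogenesis genes, 0 passed (3 at an unadjusted p under 0.05), with a median of 0.030. The nucleolar proteins Ncl, Npm1 and Fbl stood at 0.34, 0.18 and -0.17. Of 11 measured regulators 0 passed (1 at an unadjusted p under 0.05), with a median of 0.014. Myc stood at -0.45 (adjusted p = 0.0510 in limma), with 4.81 to 5.45 on the deficient arrays and 5.40 to 5.85 on the sufficient arrays. Its probe was dim, not far above the 4.47 to 4.56 of the Y-linked Eif2s3y on female arrays. Mdm2, the ubiquitin ligase of p53, stood at -0.11.

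Markers of several cell types moved with the diets, and their part in the ribosomal protein values was not tested. Of all kept probes 5.3% rose and 5.51% fell with labelled animals, and 0.0815% and 0.2% with sex-matched pairs. The mean deviation of 16 measured fibroblast markers, of which 9 rose and 0 fell, was -0.24 to 0.53 on deficient arrays and -0.86 to -0.26 on sufficient arrays. It was -0.86 on sample 1 of sufficient animal 3 and -0.78 on the other female sufficient array, whose ribosomal protein score of -0.080 was near that of a male sufficient array. The 12 measured B and plasma cell markers, of which 6 fell and 0 rose, had -0.67 to 0.0069 on deficient arrays and 0.50 to 0.70 on sufficient arrays. The 11 measured T and NK cell markers, of which 5 fell, had -0.35 to 0.053 on deficient and 0.17 to 0.37 on sufficient arrays. With sex-matched pairs 1 fibroblast marker rose (8 at an unadjusted p under 0.05), 3 B and plasma cell markers fell (6 unadjusted) and 0 T and NK cell markers passed (4 unadjusted).

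Epithelial markers differed less. The 15 measured ones, of which 0 passed (3 at an unadjusted p under 0.05), had -0.24 to 0.25 on deficient arrays and -0.015 to 0.11 on sufficient arrays. Of these, 14 were detected on all 12 arrays, whereas Epcam and Muc2 were not among the kept probes. Of the 17 measured markers of proliferating crypt cells, 1 rose (Ascl2) and 4 fell (Lgr5, Cdk1, Birc5 and Top2a). Their mean deviation was -0.21 to 0.041 on deficient arrays and -0.040 to 0.31 on sufficient arrays, and was 0.31 on both female sufficient arrays. With sex-matched pairs 0 of them passed (3 at an unadjusted p under 0.05). The 11 smooth muscle markers (0 passed, 2 at an unadjusted p under 0.05) had -0.50 to 0.52 on deficient and -0.30 to -0.12 on sufficient arrays. Their median difference was nevertheless 0.41, with 10 above 0. In 7 of them all deficient labelled animals lay above both sufficient ones and in 1 below. With sex-matched pairs this held for 0 above and 1 below. Over all kept probes 21.9% lay above and 20.7% below with labelled animals, and 12.5% each way with sex-matched pairs. The 12 myeloid markers (2 fell, and 0 with sex-matched pairs, with 3 at an unadjusted p under 0.05) had -0.37 to 0.17 on deficient and 0.041 to 0.33 on sufficient arrays.

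Genes with and without the letters searched had overlapping differences. The 9 genes with a C and T run exactly at an annotated start (Rpl28, Rpl35, Rpl35a, Rpl38, Rps6, Rps10, Rps15a, Rps21 and Rps27) had a median difference of 0.21 and ranged from 0.074 to 0.44. The 34 other genes with a window had a median of 0.17 and ranged from -0.11 to 0.52. The 17 genes with CCGGAAG had a median of 0.17 and the 26 without it 0.20. Rps15, Rpl19 and Rpl34, whose windows are shown above, rose without a run exactly at an annotated start, and Rps2, with the lowest difference, holds CCGGAAG.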

How the data were processed

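RNA extracted from colon with Trizol was cleaned on columns and made into biotinylated cRNA for Illumina arrays, per the labels' protocols. The authors deposited a mean bead intensity per probe and array, on a linear scale and not normalised as far as its values show, with a detection p-value beside it, per the file headers. The deposited series table of log2 values, processed by the authors and centred per probe, served as an alternative; its normalisation is not given in the sources used here. Each of its 12 columns correlated best with its own array (0.957 to 0.979).

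Intensities were background-corrected by normexp (offset 16, negative controls estimated through the detection p-values), quantile-normalised and taken to log2 (limma 3.58.1, R 4.3.3). Probes with a detection p-value under 0.05 on at least 4 of 12 arrays were kept. The samples of each labelled animal were averaged, and the 6 means fitted with lmFit and eBayes for the difference deficient minus sufficient. Tests were two-sided at a threshold of 0.05 after Benjamini-Hochberg adjustment over 13497 probes, a procedure tested on simulated data. An exact permutation of 6 animals has 15 splits and cannot go below p = 0.0667. The number of animals limits the precision. Nothing in the labels pairs animals of the same number across diets (correlations of their deviations -0.063 and -0.050).

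Gene symbols come from the platform annotation, and coordinates and pseudogene counts from RefSeq, GRCm38.p6. Named genes were those past the threshold, the 5 largest differences in each direction, the brightest and dimmest members, and a list of well-known ribosomal protein and translation genes. The members, gene lists and tests were chosen with earlier results of these data known. Rpl11 and the other genes of that list without a probe under the symbol rule were not analysed here.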

Additional observations from a re-analysis of the deposited data

Results flagged for a closer look

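Of 44 groups of arrays tested for an array far from the others (21 named genes and the gene score, on each diet), 3 had one, where chance flags about 1 in 20. Rps15a lay at 6.19 on sample 2 of deficient animal 1, against 6.81 to 7.37 on the other deficient arrays. Rpl39 lay at 13.6 on the same array, against 13.71 to 13.79 on the others. Rps27 lay at 13.78 on sample 2 of deficient animal 3, against 13.42 to 13.59 on the others. None of these 3 genes passed limma's test between the diets with all animals. Without deficient animal 1, Rps15a stood at 0.56 with an adjusted p of 0.0314 in limma.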

How the results depend on the processing

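The number of member probes that rose, 4, depended on the replicate and on the scaling, and the number that fell was 0 in every alternative run. It was 0 with sex-matched pairs, with sex as a covariate, with the pair as a random block, without sample 1 of sufficient animal 3 (chosen after seeing the data) and with the replicate block (animal number). In these settings, in the same order, 0.0815%, 0.0074%, 1.94%, 2.62% and 1.92% of all kept probes rose. It was 1 with the authors' log2 table and with no normalisation between arrays, 2 with median or 75th percentile scaling, 6 with quantile normalisation without background correction, 7 with detection p-values under 0.01 on all arrays, 9 with the labelled animal as a random block, 10 with an offset of 50, and 11 with no filter or with a variance trend. Leaving out 1 deficient labelled animal gave 2 without animal 1 or 3, 4 without animal 2 and 1 without animal 4, with the shares given above. Leaving out 1 deficient sex-matched pair gave 0 each time, where 0% to 1.70% of all kept probes rose. Without a sufficient animal or pair a single one is left on that diet, so a count there says little. The median difference, 0.18, was 0.23 with no normalisation between arrays, where the median of all probes was 0.051, 0.067 without sample 1 of sufficient animal 3, and 0.060 to 0.27 when 1 animal or pair was left out, the lowest without the sufficient female pair.

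Small differences changed sign. With the replicate block Rplp0 stood at 0.035 and Rpl10 at 0.026; with the authors' table Rplp1 stood at -0.0063 and Rps24 at -0.0092, with median scaling at -0.0074 and -0.010, and with 75th percentile scaling at -0.00090 and -0.0038. With no normalisation between arrays Rplp0 stood at 0.026, Rpl3 at 0.018, Rpl5 at 0.010 and Rpl10 at 0.025. Without sample 1 of sufficient animal 3, Rpl3 stood at 0.0021, Rps24 at -0.0052 and Rpl39 at -0.023. Leaving out 1 animal or pair gave -0.0098 to 0.052 for Rplp1, -0.022 to 0.071 for Rps24, -0.042 to 0.18 for Rpl39, -0.044 to 0.35 for Rps27, -0.039 to 0.016 for Rpl10, -0.085 to 0.021 for Rplp0, -0.094 to 0.025 for Rpl3 and -0.13 to 0.011 for Rpl5. The cause of these changes was not tested. Without the sufficient female pair Rps15 stood at 0.27 and Rpl34 at 0.090. All 4 genes that rose kept their direction in every alternative run. Over all kept probes 716 rose and 744 fell, against 11 and 27 with sex-matched pairs, 262 and 260 with the pair as a random block and 353 and 359 without sample 1 of sufficient animal 3.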
